A study of Homo sapiens with 6 samples.

Results

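A set of 10 genes that mark crypt stem cells, WNT signalling and intestinal identity were followed in DLD1, an established human colorectal cancer cell line that carries a mutant APC gene. They were chosen by gene symbol: LGR5, RNF43, APCDD1, AXIN2, ASCL2, SOX9, CDX2, MYC, EPHB2 and CD44. Both tables together list 21648 genes, and all 10 were among the 21519 of the co-culture table. Of these, 8 were among the 9450 genes of the METTL1 knockdown table, which lists only genes with an m7G peak, and AXIN2 and EPHB2 were not analysed there. The co-culture libraries, both of genotype WT, were S-CAFs-w13, from cells grown beside senescent cancer-associated fibroblasts (S-CAFs), and DLD1-W13CM. The title DLD1-W13CM names no fibroblast and does not explain the letters CM; by elimination it was read as the culture beside CAFs. The knockdown libraries were of DLD1 cells with stable METTL1 knockdown by a single construct, sh2, and of control cells, sh-NT, with 1 input library and 1 m7G immunoprecipitate (IP) of each line. The design text speaks of replications of these lines, of which 1 is analysed here. METTL1 is a methyltransferase that writes 7-methylguanosine (m7G) inside tRNAs and other RNAs. With 1 library in each of the 6 groups there was no replicate check, so every difference describes a pair of libraries and no p-value across replicate libraries could be computed.

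WNT ligands bind Frizzled and LRP receptors and stop a destruction complex, built on APC and AXIN proteins, from breaking down beta-catenin, which then works with TCF and LEF factors to switch on target genes. In the crypt this signal maintains stem cells, and R-spondins raise it through LGR receptors by keeping RNF43 and ZNRF3 from removing Frizzled. Where APC is truncated, as in most colorectal cancers, beta-catenin stays active with little need of a ligand. AXIN2, RNF43 and APCDD1 are targets that feed back as inhibitors, and CDX2 is the homeobox factor that holds intestinal identity.

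Levels are in FPKM, a fragment count corrected for gene length and sequencing depth, and reads are the smallest whole numbers that the FPKM steps allow. Effective library sizes recovered in this way were 6215547 for S-CAFs-w13, 6337932 for DLD1-W13CM, 11625162 for knockdown input and 10454179 for control input. Ranges in parentheses are 95% counting intervals, which cover counting error only and not differences between cultures. METTL1 stood at 3.28 FPKM in knockdown input and at 5.80 FPKM in control input, 1.77-fold lower (1.37 to 2.29). It stood at 1.78 FPKM in S-CAFs-w13 and at 4.82 FPKM in DLD1-W13CM. Epithelial markers summed to 3189 FPKM in S-CAFs-w13 and 2079 FPKM in DLD1-W13CM, with 8 of 8 listed. The keratins KRT18 (1593 FPKM in S-CAFs-w13 and 892 FPKM in DLD1-W13CM), KRT8 and KRT19 carried that difference, while CDH1 stood at 103 FPKM in S-CAFs-w13 and 133 FPKM in DLD1-W13CM and EPCAM at 149 FPKM in S-CAFs-w13 and 154 FPKM in DLD1-W13CM. VIL1 and CDH17 were also lower in S-CAFs-w13. Of 11 fibroblast markers 4 were listed, with summed levels of 3.09 FPKM in S-CAFs-w13 and 2.36 FPKM in DLD1-W13CM. PDGFRB stood at 0.564 FPKM in S-CAFs-w13 and 0.0221 FPKM in DLD1-W13CM, from at least 25 reads and 1 read. COL1A1 stood at 0.229 FPKM in S-CAFs-w13 and 0.0482 FPKM in DLD1-W13CM, and VIM at 0.78 FPKM in S-CAFs-w13 and 0.489 FPKM in DLD1-W13CM. ACTA2 went the other way, at 1.51 FPKM in S-CAFs-w13 and 1.8 FPKM in DLD1-W13CM. The part of these traces in the results was not tested.

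The first comparison sets the cancer cells grown with S-CAFs against DLD1-W13CM. In S-CAFs-w13 the stem cell genes LGR5 and ASCL2 and the identity factor CDX2 were lower, SOX9 was higher, and the target genes AXIN2, MYC, EPHB2 and CD44 were nearly level. A gene was counted on the log2 scale of FPKM + 1 where its mean reached 1 FPKM. Of 9 members that did, 1 was 2-fold or more higher and 3 were 2-fold or more lower. Of all 14739 such genes, 9.08% were higher and 7.92% lower by that rule. The tenth gene, APCDD1, had a mean of 0.479 FPKM and did not pass the filter.

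**Figure D1:**
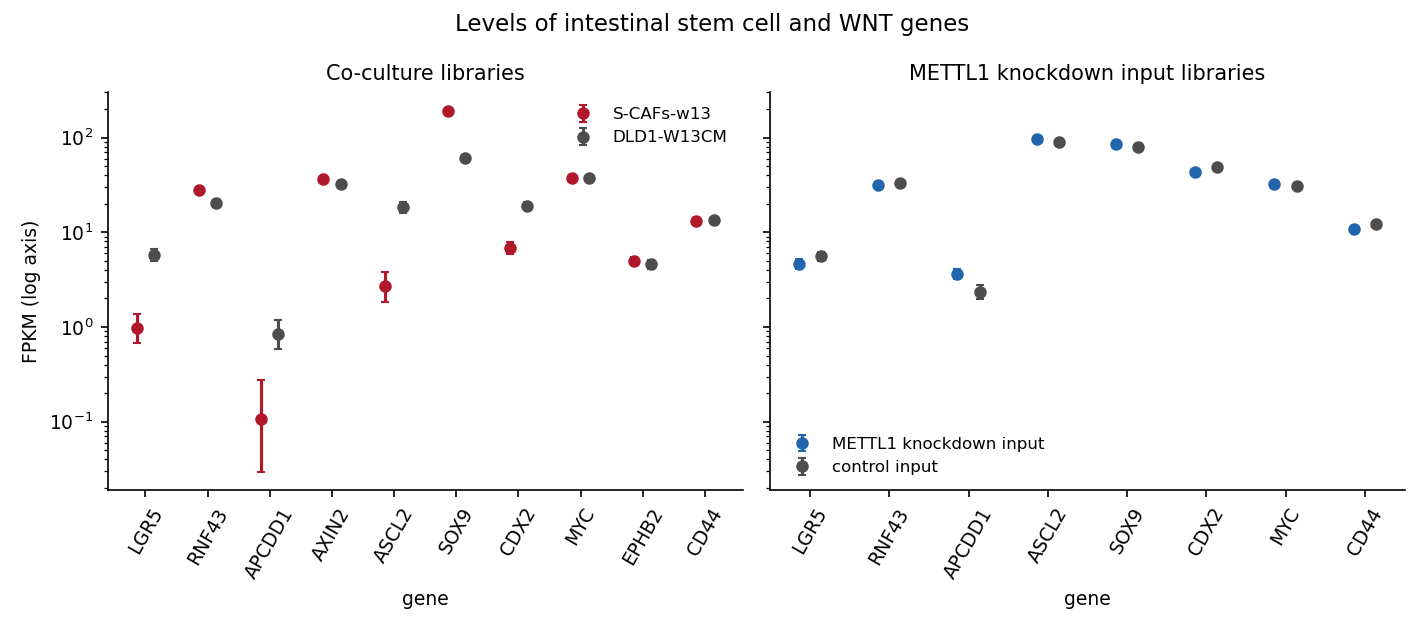
FPKM (log axis) of the 10 genes in the co-culture libraries (left: S-CAFs-w13 in red, DLD1-W13CM in grey) and of the 8 listed genes in the input libraries (right: METTL1 knockdown in blue, control in grey); bars are 95% Poisson intervals of the reads, and each point is 1 library. LGR5, APCDD1, ASCL2 and CDX2 lie lower and SOX9 higher in S-CAFs-w13 than in DLD1-W13CM, while the input libraries lie close together for every gene.

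Among the receptors and their inhibitors, LGR5, an R-spondin receptor and the best known marker of crypt base stem cells, stood at 0.98 FPKM in S-CAFs-w13 and 5.74 FPKM in DLD1-W13CM. These levels came from at least 32 and 191 reads, and the ratio was 5.85-fold lower (4.01 to 8.80). RNF43, the ubiquitin ligase that clears Frizzled from the cell surface, stood at 27.8 FPKM in S-CAFs-w13 and 20.4 FPKM in DLD1-W13CM, 1.36-fold higher (1.25 to 1.48). The counting interval of RNF43 thus lay above 1 although the gene stayed under 2-fold. APCDD1, a membrane protein that inhibits WNT signalling, stood at 0.108 FPKM in S-CAFs-w13 and 0.85 FPKM in DLD1-W13CM. At least 4 and 32 reads lay behind these values, and its ratio, 7.85-fold lower, had the wide interval 2.78 to 30.5.

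AXIN2, the scaffold of the destruction complex and a widely used readout of WNT activity, stood at 36.1 FPKM in S-CAFs-w13 and 32.4 FPKM in DLD1-W13CM, 1.11-fold higher (1.02 to 1.21). That small difference depended on the scaling: in the authors' deposited table its log2 fold change was 0.01, and without the genes of the mitochondrial genome its log2 ratio of FPKM + 1 was -0.09. Removing those genes moved the median log2 ratio of all genes to -0.17, against 0.02 with them, so relative to that shift AXIN2 lay on the higher side in both cases.

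A trio of transcription factors differed past 2-fold. ASCL2, the factor that sets stem cell fate in the crypt, stood at 2.69 FPKM in S-CAFs-w13 and 18.5 FPKM in DLD1-W13CM, 6.86-fold lower (4.70 to 10.4), on 31 and 217 reads or more. CDX2 stood at 6.83 FPKM in S-CAFs-w13 and 19.0 FPKM in DLD1-W13CM, 2.78-fold lower (2.33 to 3.32). SOX9, an HMG-box factor of the crypt base and of Paneth cells, went the other way, at 189 FPKM in S-CAFs-w13 and 60.2 FPKM in DLD1-W13CM. It was 3.14-fold higher (2.96 to 3.33) from at least 4624 and 1502 reads, the deepest count among the members. The counting intervals of LGR5, ASCL2, CDX2 and SOX9 all excluded 2-fold.

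The remaining target genes were nearly level. MYC, which drives growth and ribosome synthesis, stood at 37.2 FPKM in both libraries, with a fold of 1.00 (0.900 to 1.11). EPHB2, a receptor tyrosine kinase that positions cells along the crypt, stood at 4.96 FPKM in S-CAFs-w13 and 4.6 FPKM in DLD1-W13CM, a ratio of 1.08 (0.932 to 1.25) that was below 1 on the authors' scaling, at 0.976. CD44, the hyaluronan receptor, stood at 13.2 FPKM in S-CAFs-w13 and 13.4 FPKM in DLD1-W13CM, a ratio of 0.989 (0.897 to 1.09). On the authors' scaling the CD44 ratio was 0.895 (0.812 to 0.986). An antisense gene, CD44-AS1, overlaps CD44 and stood at 21.4 FPKM in S-CAFs-w13 and 16.4 FPKM in DLD1-W13CM; whether reads were counted by strand is not stated, so reads of this gene pair cannot be told apart. The same holds for RNF43 and TSPOAP1-AS1, at 13.5 FPKM in S-CAFs-w13 and 11.2 FPKM in DLD1-W13CM.

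In all, the counting interval lay above 1 for 3 of the 9 measured members (SOX9, RNF43 and AXIN2) and below 1 for 3 (LGR5, ASCL2 and CDX2). Over all genes past the 1 FPKM filter with recovered reads, 28.8% lay above 1 and 25.9% below. The members' counts turned on the scaling: on that of the authors, the AXIN2 interval included 1 (0.927 to 1.1) and the CD44 interval lay below 1. In a bulk library, fewer expressing cells and less RNA per cell cannot be told apart.

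**Figure D2:**
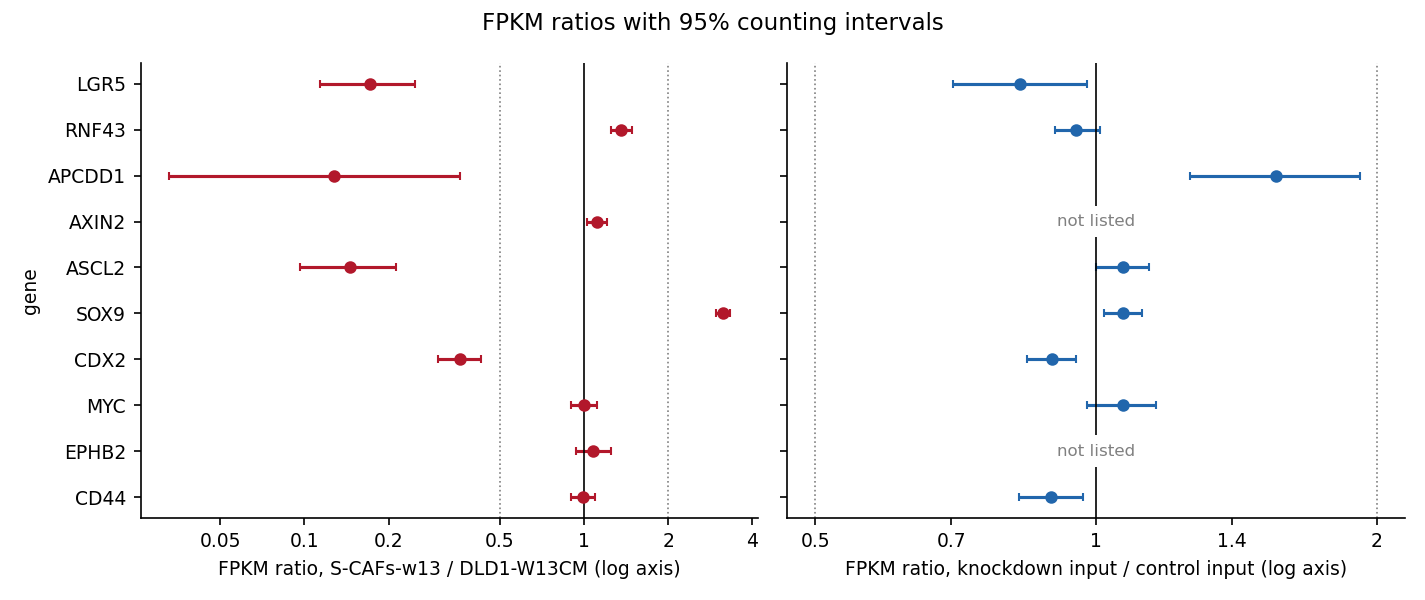
FPKM ratio of each gene (log axis) with its 95% counting interval, S-CAFs-w13 over DLD1-W13CM on the left and METTL1 knockdown input over control input on the right; the solid line is a ratio of 1 and the dotted lines are 2-fold. On the left LGR5, APCDD1, ASCL2 and CDX2 lie beyond 2-fold lower and SOX9 beyond 2-fold higher, whereas on the right no gene reaches 2-fold and APCDD1, at 1.56, is the farthest from 1.

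The order of the levels changed with these differences. In S-CAFs-w13 SOX9 was the highest member, followed by MYC (34.4 to 40.0 FPKM) and AXIN2 (34.0 to 38.2 FPKM), whose intervals overlapped, and then by RNF43, CD44, CDX2, EPHB2, ASCL2, LGR5 and APCDD1, each apart from the next beyond its counting interval. In DLD1-W13CM the first 4 places were the same, but RNF43 (19.1 to 21.7 FPKM), CDX2 (17.4 to 20.7 FPKM) and ASCL2 (16.1 to 21.1 FPKM) did not differ beyond counting error, and neither did LGR5 (4.95 to 6.61 FPKM) and EPHB2 (4.14 to 5.10 FPKM). Among all listed genes of a library, LGR5 lay at percentile 32.5 in S-CAFs-w13 and 69.6 in DLD1-W13CM, and ASCL2 at percentile 52.9 in S-CAFs-w13 and 91.0 in DLD1-W13CM. SOX9 lay at percentile 99.5 in S-CAFs-w13 and 98.2 in DLD1-W13CM.

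The other genes of the pathway were read from 12 lists of 198 genes, chosen with earlier results of these data known. Of the 126 list genes past the filter, 17 (13.5%) were higher and 10 (7.94%) lower by 2-fold or more in S-CAFs-w13, beside 9.08% and 7.92% of all genes. Their median log2 ratio was 0.12, beside 0.02 for all genes. On the authors' scaling 23 of these 27 genes were still past 2-fold, all but FOSL1, HAS2, MXI1 and TNKS, and no other list gene was.

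At the cell surface, genes differed in both directions. Of 4 measured ligand and secretion genes, 2 were past 2-fold: WNT7B at 4.71 FPKM in S-CAFs-w13 and 1.19 FPKM in DLD1-W13CM, and PORCN, which attaches the lipid that WNT proteins need for export, 3.92-fold higher (2.74 to 5.73). WNT5A stood at 2.46 FPKM in S-CAFs-w13 and 5.08 FPKM in DLD1-W13CM, 2.07-fold lower (1.64 to 2.61) as a plain ratio and not past 2-fold on the FPKM + 1 scale. Of 13 measured receptors, the counting interval lay above 1 for 5 and below 1 for 4, beside 28.8% and 25.9% of all genes. The receptors' median log2 ratio was 0.05, and on the authors' scaling the interval counts were 4 and 4. LGR4, the relative of LGR5, was 3.37-fold higher (2.62 to 4.37), at 6.88 FPKM in S-CAFs-w13 and 2.04 FPKM in DLD1-W13CM, the direction opposite to that of LGR5. The Frizzled receptor FZD5 was 2.94-fold higher (2.34 to 3.72), while ZNRF3, the relative of RNF43, stood at 4.25 FPKM in S-CAFs-w13 and 7.45 FPKM in DLD1-W13CM. None of the 3 measured secreted and membrane inhibitors was past 2-fold.

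Inside the cell, 1 of 16 measured genes of the destruction complex was at least 2-fold higher and 1 lower. APC, which is mutant in these cells, was 3.15-fold lower (2.67 to 3.73), at 2.44 FPKM in S-CAFs-w13 and 7.70 FPKM in DLD1-W13CM. TNKS, a tankyrase that marks AXIN proteins for breakdown, was 2.23-fold higher (2.01 to 2.47), and CTNNB1, which encodes beta-catenin, stood at 75.7 FPKM in S-CAFs-w13 and 57.0 FPKM in DLD1-W13CM. Of 12 nuclear partners, LEF1, itself a WNT target, was 2.62-fold lower (2.1 to 3.28) and the beta-catenin coactivator BCL9L 2.73-fold higher (2.54 to 2.94). TCF7L2, the main TCF factor of the intestine, stood at 21.3 FPKM in S-CAFs-w13 and 23.3 FPKM in DLD1-W13CM.

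Most of the other WNT targets on the list that passed the filter were higher. Of 16 measured, the counting interval lay above 1 for 13 and below 1 for 2 (11 and 2 on the authors' scaling), beside 28.8% and 25.9% of all genes. Past 2-fold, 3 were at least 2-fold higher (PLAUR, PPARD and FOSL1, the first 3.46-fold) and 1 lower (BIRC5, the apoptosis inhibitor survivin, 3.15-fold), and the median log2 ratio was 0.47. Of the listed targets below the filter, SP5, CTTNBP2 and L1CAM were lower and MMP7 higher in S-CAFs-w13, each with an interval including 1. NOX1 was 20.6-fold lower (3.31 to 852), from at least 1 read in S-CAFs-w13 and 21 in DLD1-W13CM, and TCF4 4.06-fold lower (2.52 to 6.79). LEF1, a WNT target counted with the nuclear partners, was also lower, so the rise does not extend to all WNT targets. Of 11 other crypt stem cell genes, SLC12A2 alone was past 2-fold, 2.1-fold lower (1.96 to 2.25), and the list median was -0.03. Of 10 intestinal identity factors, FOXA2 alone was past 2-fold, 3.86-fold higher (2.53 to 6.08). The list median was 0.52, with the counting interval above 1 for 6 (KLF5, ELF3, GATA6, KLF4, HES1 and FOXA2) and below 1 for 2, while HNF4A stood at 4.6 FPKM in S-CAFs-w13 and 4.64 FPKM in DLD1-W13CM. Beside EPHB2, EPHB6 was 3.27-fold higher and the ephrin ligand EFNB1 3.81-fold higher. Among partners of CD44, the hyaluronan synthase HAS2 was 3.78-fold higher (2.18 to 6.89) and the hyaluronidase gene HYAL3 7.45-fold lower (2.93 to 24.3), from at least 5 reads in S-CAFs-w13 and 38 in DLD1-W13CM.

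The MYC transcript was level, while most of its listed target genes were lower. Of 17 measured MYC target genes, 5 were at least 2-fold lower and 0 higher, beside 7.92% and 9.08% of all genes. The counting interval lay below 1 for 16, beside 25.9% of all genes. Their median log2 ratio was -0.68, beside 0.02 for all genes. NOP56, a core protein of box C/D snoRNPs, stood at 7.57 FPKM in S-CAFs-w13 and 33.9 FPKM in DLD1-W13CM, 4.47-fold lower (3.90 to 5.15). NOP58 was 3.30-fold, the nucleolar protein NCL 2.59-fold, the polyamine enzyme ODC1 2.40-fold and SRM 2.24-fold lower. Of 12 measured partners and antagonists of MYC, 4 were at least 2-fold higher and 0 lower, beside 9.08% and 7.92% of all genes. The counting interval lay above 1 for 6 and below 1 for 4, beside 28.8% and 25.9% of all genes. The lower ones were MGA, USP28, MXD3 and MAX, the partner of MYC, at 10.1 FPKM in S-CAFs-w13 and 13 FPKM in DLD1-W13CM. MXD1, which competes with MYC for MAX, was 3.59-fold higher (3.19 to 4.05), MNT 2.98-fold and MXI1 2.26-fold. MLXIPL, a glucose-responsive factor of the extended network, stood at 5.48 FPKM in S-CAFs-w13 and 0.524 FPKM in DLD1-W13CM.

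**Figure D3:**
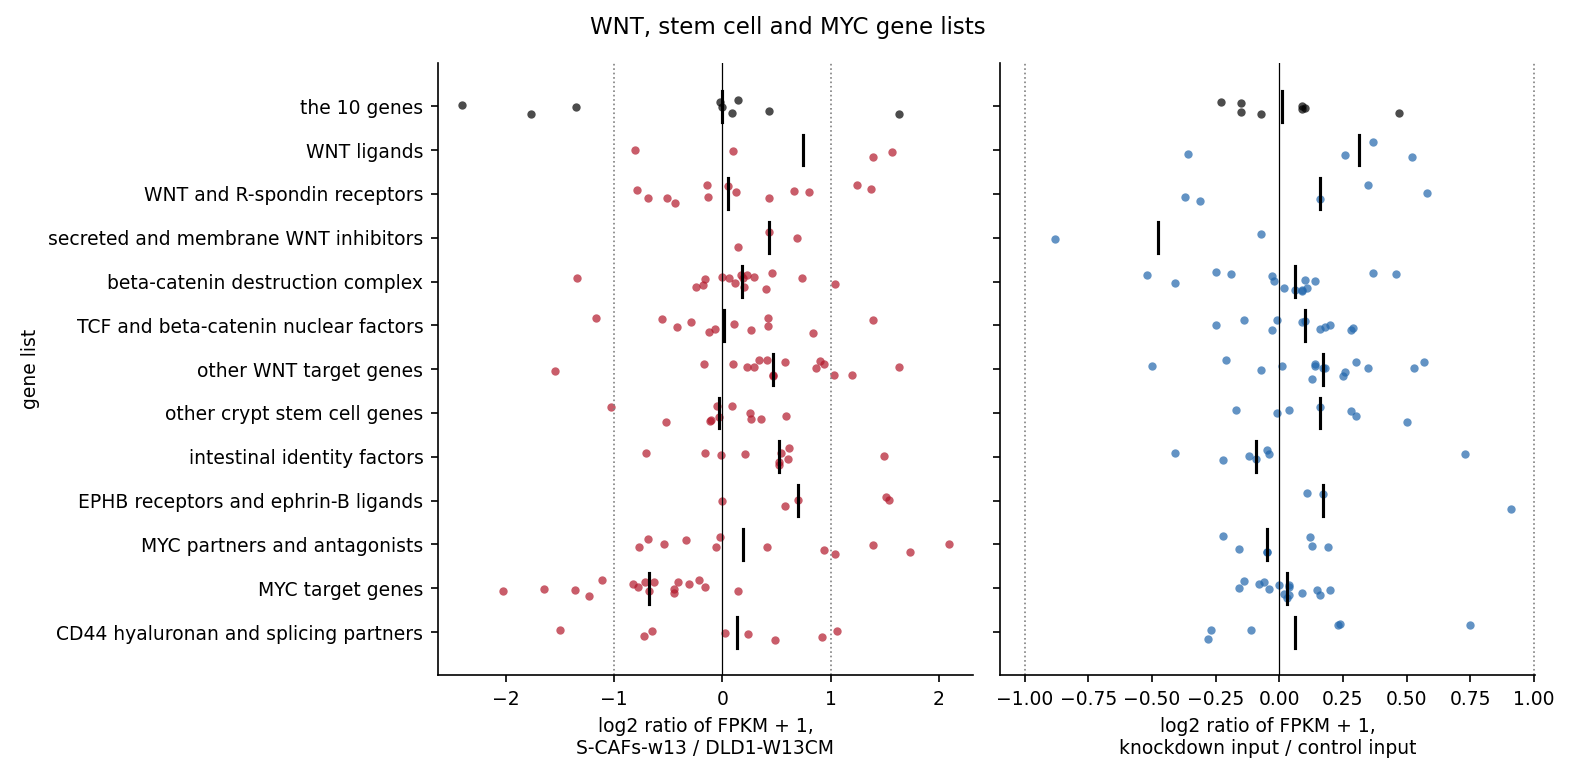
Log2 ratio of FPKM + 1 of every measured gene of each list, S-CAFs-w13 over DLD1-W13CM on the left and knockdown input over control input on the right (axes differ); each point is a gene past the 1 FPKM filter, the thick bar is the list's median, dotted lines are 2-fold, and vertical scatter within a row carries no value. The MYC target genes lie to the left on the left panel, with a median of -0.68, and no gene of any list passes 2-fold on the right panel.

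The knockdown comparison asks what reduced METTL1 does to RNA levels. None of the 8 listed members was past 2-fold in knockdown input, nor past 1.5-fold on the scale of FPKM + 1. Of all 8400 genes past the filter, 0.429% were higher and 0.56% lower by 2-fold or more. The counting interval lay above 1 for 3 members and below 1 for 3, where it lay above 1 for 24.8% and below 1 for 23.1% of all genes with recovered reads. APCDD1 had the largest ratio, at 3.63 FPKM in knockdown input and 2.33 FPKM in control input, 1.56-fold higher (1.26 to 1.92) from at least 251 and 145 reads.

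LGR5 stood at 4.64 FPKM in knockdown input and 5.59 FPKM in control input, 1.21-fold lower (1.02 to 1.42). CDX2 stood at 43.8 FPKM in knockdown input and 48.8 FPKM in control input, 1.12-fold lower (1.05 to 1.19). CD44 stood at 10.9 FPKM in knockdown input and 12.2 FPKM in control input, also 1.12-fold lower (1.03 to 1.21). SOX9 was 1.07-fold higher (1.02 to 1.12), at 85.9 FPKM in knockdown input and 80.0 FPKM in control input. These differences are small, and a single pair of libraries cannot place them against the spread between cultures.

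ASCL2 stood at 96.7 FPKM in knockdown input and 90.4 FPKM in control input, a ratio of 1.07 with a lower bound of 1.00, or 0.993 on the authors' scaling. RNF43 stood at 31.9 FPKM in knockdown input and 33.5 FPKM in control input, a ratio of 0.953 (0.903 to 1.01) whose interval on the authors' scaling was 0.894 to 0.995. MYC stood at 32.6 FPKM in knockdown input and 30.5 FPKM in control input, a ratio of 1.07 (0.978 to 1.16). So the calls of ASCL2 and RNF43 turned on the scaling, and the MYC interval included no difference on either scaling.

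Of the 96 list genes measured in this table, 0 were past 2-fold on the FPKM + 1 scale. Their median log2 ratio was 0.07, beside 0.01 for all genes. The counting interval lay above 1 for 37 and below 1 for 20, beside 24.8% and 23.1% of all genes with recovered reads. The WNT inhibitor receptor KREMEN2, at 0.757 FPKM in knockdown input and 2.23 FPKM in control input, was past 2-fold only with a smaller pseudocount. EPHB6, at 13.1 FPKM in knockdown input and 6.48 FPKM in control input, was 2.01-fold higher (1.78 to 2.29) as a plain ratio. On the FPKM + 1 scale its log2 ratio was 0.91. MYC target genes had a median of 0.03. Of 15, the interval lay above 1 for 3 and below 1 for 3, beside 24.8% and 23.1% of all genes.

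The tables were scaled separately and share no library, so levels are set side by side without a comparison. ASCL2 ranked first of the 8 listed members in both input libraries. In the co-culture table, which also lists AXIN2 and EPHB2, it ranked eighth of 10 in S-CAFs-w13 and sixth of 10 in DLD1-W13CM. LGR5 ranked seventh of 8 in both input libraries, at percentile 37.9 of the listed genes in knockdown input and 43.2 in control input. The genes listed there all have an m7G peak, so these percentiles and those of the co-culture table are over unlike sets.

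The m7G comparison asks which transcripts carry the mark and whether it shifts with METTL1. All 8 members of the knockdown table had a listed peak, since a peak is the condition for a row there. The authors' deposited table classes 6 of these peaks as 5' UTR and 2 as coding sequence, against 49.5% of all 9450 peaks classed as 5' UTR. Peak positions are on GRCh38, the build of the submitters' processing notes, and gene starts are those of RefSeq on GRCh38.p14. Of the 8 peaks, 5 held the gene start, where 49.8% of the 8514 peaks with a matched gene did. The mRNA cap is itself a 7-methylguanosine, and whether caps were removed before the pull-down is not stated, so cap and internal m7G near a gene start cannot be told apart.

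The RNF43 peak (chr17:58417266-58417595, minus strand, 330 bases) reached from 61 bases before the gene start to 268 bases past it. The SOX9 peak (chr17:72121020-72121348, plus strand, 329 bases) began at the gene start itself. The CD44 peak (chr11:35139079-35176609, plus strand) had a first block from 92 bases before to 199 bases past the gene start and a second block of 39 bases in a later exon. The APCDD1 peak (chr18:10454658-10468475, plus strand) began 23 bases past the gene start. Peaks classed as coding sequence were longer, and both also held the gene start. That of ASCL2 (chr11:2269062-2270952, minus strand) covered 1285 bases in 2 blocks, the first from 364 bases before to 855 bases past the gene start. That of CDX2 (chr13:27963361-27969437, minus strand) covered 1196 bases in 4 blocks, the first from 122 bases before to 849 bases past the gene start. The LGR5 peak (chr12:71439800-71440128, plus strand, 329 bases) and the MYC peak began 671 and 564 bases past the RefSeq gene start.

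**Figure D4:**
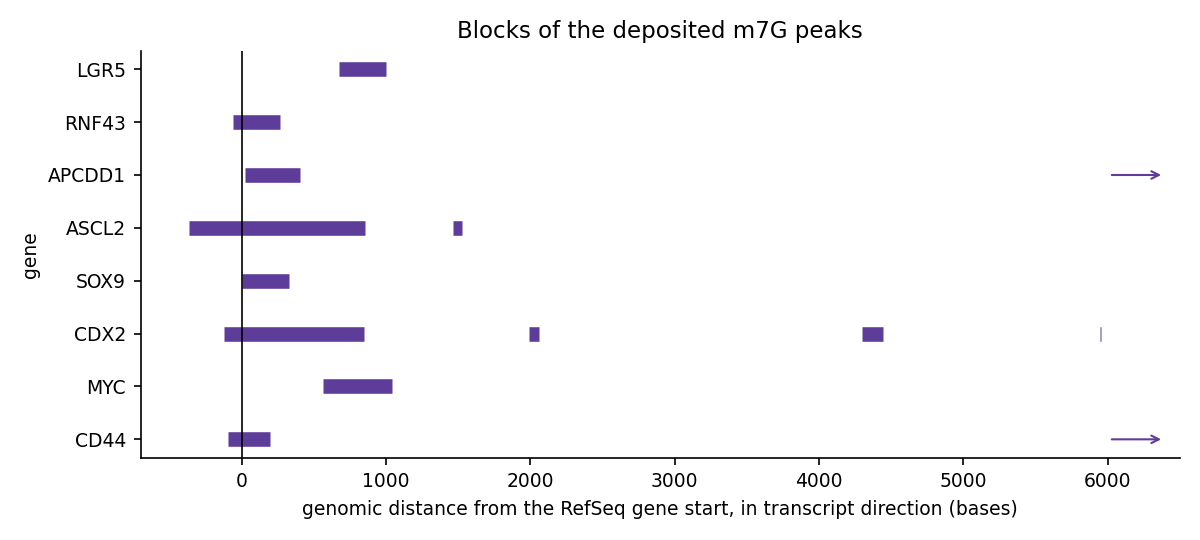
Blocks of the deposited m7G peak of each listed gene as genomic distance in bases from the RefSeq gene start (vertical line), in the direction of transcription; an arrow marks a further block beyond the axis, at 13834 bases for APCDD1 and 37400 bases for CD44. The blocks of RNF43, ASCL2, CDX2 and CD44 span the gene start, that of SOX9 begins on it, and those of LGR5 and MYC lie past it.

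Of these genes, 4 have a start sequence in the RefSeq promoter table. The first 30 bases past each start are shown because the peaks lie on them, with bases inside the peak in capitals, 5' to 3' on the strand of the gene.
RNF43 (chr17:58417505-58417534, minus strand): GGGAGTTGATCCAGAATTGTCTTTCTGAAA
CD44 (chr11:35139171-35139200, plus strand): CTCATTGCCCAGCGGACCCCAGCCTCTGCC
CDX2 (chr13:27969286-27969315, minus strand): AATCACGGAAGGCCGCCGGCCTGGGGCTCC
APCDD1 (chr18:10454635-10454664, plus strand): gaagagacgctgcagctgcggtgGCGGTGG
Guanines made up 8 of the 30 bases in RNF43, 6 in CD44, 11 in CDX2 and 15 in APCDD1. For APCDD1 only the last 7 of these bases lay inside the peak.

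The same table was searched for the TCF and LEF site on both strands, spelled as AACAAAG and as ATCAAAG and as TACAAAG and as TTCAAAG, in windows of 250 bases before to 50 bases after each gene start. It held 7 windows of 5 members (EPHB2, CD44, CDX2, RNF43 and APCDD1). Only the CDX2 window had a match, 238 bases before the gene start, and 13.8% of all 35116 windows had one. The match is shown as the one found among the members. Capitals mark the site, which reads TTCAAAG on the other strand.
CDX2 (chr13:27969535-27969564, minus strand): ttgatttcattCTTTGAAcctgtgattgga

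The height of the peaks varied among the members. In the authors' deposited table, the fold enrichment was 45.7 for APCDD1, 34.8 for RNF43, 27.7 for CD44, 24.9 for MYC and 22.1 for CDX2. It was lower for ASCL2 at 13.1, for SOX9 at 9.54 and for LGR5 at 5.46 in the authors' deposited table. These are the authors' values for each peak, IP over input, and over which libraries they were taken is not stated. Among all peaks the APCDD1 value lay at percentile 94.4 and the LGR5 value at percentile 19.6, and the median of all peaks was 12.4. Within the class of 5' UTR peaks LGR5 lay at percentile 7.80.

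The authors' deposited table gave none of the 8 peaks an FDR below 0.05 for the change between the lines, where 5.25% of all 9450 peaks had one. The lowest FDR among them was 0.488 and the highest 0.676 in the authors' deposited table, and none had a p-value under 0.05. The numerator of the change is not stated and was read as knockdown over control; read the other way, each sign turns round. In that reading the authors' deposited table gave log2 changes of 0.151 for ASCL2, 0.099 for CDX2, 0.0933 for MYC, -0.117 for SOX9, -0.243 for RNF43, -0.279 for CD44 and -0.321 for LGR5. APCDD1 stood apart with a log2 change of 1.76 in the authors' deposited table, larger in size than 95.1% of all peaks, yet its FDR was 0.514. APCDD1 was also the listed member with the lowest input level. With 1 IP and 1 input library of each line, the spread between cultures is not part of these FDRs.

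**Figure D5:**
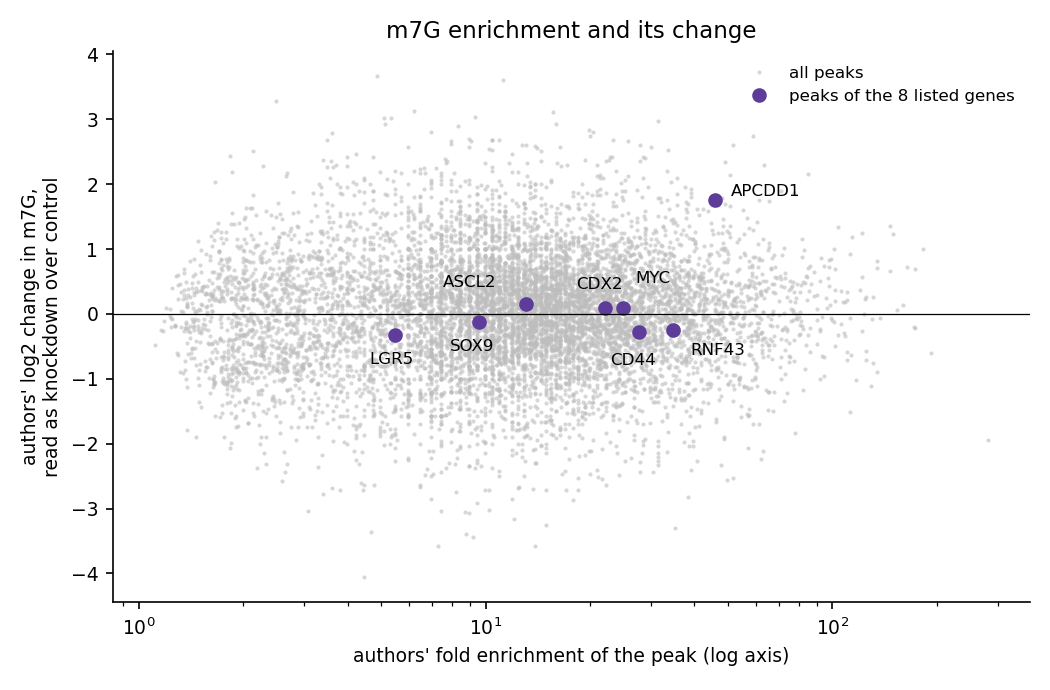
Authors' log2 change in m7G, read as knockdown over control, against the authors' fold enrichment (log axis) for all 9450 peaks (grey) and the peaks of the 8 listed genes (purple). The other 7 genes lie close to 0 on the vertical axis, between -0.321 and 0.151, and APCDD1 alone lies far off, at 1.76 with a fold enrichment of 45.7.

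By the authors' deposited table, 10 of the 97 list genes with a peak were below an FDR of 0.05, 2 with a higher and 8 with a lower m7G value in the same reading. That is 10.3% of their peaks, beside 5.25% of all peaks, of which 290 were higher and 206 lower in the authors' deposited table. The largest was in ZNRF3, the relative of RNF43, in a peak classed as coding sequence (chr22:28883592-28917392) that began 20 bases past the gene start. There the authors' deposited table gave a log2 change of -1.68 (FDR 0.00024). The beta-catenin cofactor PYGO2 had -1.49 (FDR 0.000158) and TCF7L2 had -1.17 (FDR 0.0174) in the authors' deposited table, both in 5' UTR peaks. DVL3, ETS2, FOSL1, WDR43 and NPM1 also had a lower value, and NOP16 and EZR a higher one. Some of these peaks were barely enriched: the authors' deposited table gave a fold enrichment of 1.24 for NPM1, 1.55 for ETS2 and 1.9 for WDR43 and EZR. These values and that of DVL3 lay under the median of all peaks, 12.4, and those of ZNRF3, PYGO2, TCF7L2, FOSL1 and NOP16 lay above it. The RNA levels of these genes differed in both directions. ZNRF3 stood at 19.3 FPKM in knockdown input and 14.9 FPKM in control input. TCF7L2 stood at 24.8 FPKM in knockdown input and 20.1 FPKM in control input. DVL3, FOSL1 and EZR were also higher in knockdown input. PYGO2, at 19.3 FPKM in knockdown input and 19.4 FPKM in control input, was level, as were ETS2, WDR43 and NOP16. NPM1 was lower, at 305 FPKM in knockdown input and 342 FPKM in control input. Whether RNA level goes with the m7G change was not tested. Whether the members differ from the list genes in m7G change was not tested either.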

How the data were processed

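RNA of 6 libraries was measured; 4 (both co-culture and both input libraries) have expression columns. Tools listed in the submitters' processing notes are HISAT2 2.1.0, featureCounts 1.6.3, cutadapt 2.5, HOMER 4.10.4, SAMtools 1.10 and DESeq2, and builds listed are hg38, GRCm38 and GRCh38; their roles and the peak caller are not stated. The authors deposited FPKM values; for the input columns the unit was inferred from the values. The authors also deposited log2 fold changes with p-values per gene and, per peak, a fold enrichment (a ratio), a log2 change in m7G with log10 values of its FDR and p-value, per the file headers. A log10 p-value of the peak itself, handled as a score, was deposited by the authors and not used.

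FPKM ratios within a table were reduced to whole read numbers at a relative tolerance of 1e-13, set after the data were seen; in the co-culture table this succeeded for 20805 of the 20806 genes with 2 values above 0, in the knockdown table for all 9348. RefSeq lengths of 24 mitochondrial genes gave the co-culture library sizes, and gene lengths recovered there gave those of the knockdown table. The real read numbers may be larger by a whole factor. Intervals on the authors' scaling, for members and lists, were added after the data were seen. Ratios have Clopper-Pearson and levels Poisson intervals at 95%. Differences past 2-fold were counted on log2(FPKM + 1), a scale that shrinks ratios of low genes, where the mean reached 1 FPKM. The steps were tested on simulated data. Members and gene lists were chosen with earlier results of these data known. All members are named; of each list, genes past 2-fold, at most 6 per direction, and up to 10 with an m7G FDR under 0.05; other list genes named were chosen after their values were seen. Python 3.11.15, scipy 1.17.1 and pandas 2.3.3 were used.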

Additional observations from a re-analysis of the deposited data

How the results depend on the processing

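Of the 9 measured members, 4 were past 2-fold between the co-culture libraries, and the count was 4 with a pseudocount of 0.1 FPKM, with none, without the filter, on the authors' scaling, centred on the median of all genes, without the mitochondrial genome and at a 1.5-fold threshold. It was 3 at a mean of at least 5 FPKM, which removes LGR5. Single log2 ratios kept their sign in every called member; 12 of 45 recomputed values moved beyond the counting interval, mostly with the scaling. In the knockdown table the members' count was 0 under each of these settings and 0 of 40 recomputed values moved so far. The count of list genes was between 20 and 32 in the co-culture table. In the knockdown table it was 0, but 1 with a pseudocount of 0.1 FPKM, KREMEN2 at a log2 ratio of -1.44, since a smaller pseudocount enlarges the ratio of low genes. The m7G count was 0 at an FDR under 0.1 and at a p-value under 0.05; the reverse reading turns only the sign and cannot alter the count. No paired analysis was possible because each group held 1 library. Reads limit APCDD1 in S-CAFs-w13, at 4 reads or more, and LGR5 and ASCL2, at 32 and 31 or more.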
